A study of Homo sapiens with 9 samples.

Results

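H358 cells in which SMARCA2, the gene of the chromatin remodelling ATPase BRM, was knocked out were compared with the unedited parental line by RNA-seq. The 2 groups make up 6 of the 9 libraries of the series and were taken by their genotype labels, with 3 libraries each. H358 derives from a human non-small cell carcinoma of the lung. Cultures were kept in RPMI with fetal bovine serum, and total RNA was sequenced. The knockout was made with CRISPR, and another group, in which SMARCA4 (BRG1) was knocked out in the same way, served here to share the estimate of spread and for values set side by side. Of 58237 annotated genes, 18205 had enough reads to be tested, and 8287 of these had several transcripts whose shares could be compared.

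BRM and BRG1 are the alternative motors of SWI/SNF complexes, which use ATP to slide or evict nucleosomes and so open promoters and enhancers to transcription factors. A complex holds one motor together with a core and a set of exchangeable subunits, and carcinoma lines that lose BRG1 often depend on BRM. In airway epithelium these complexes work with lineage factors such as NKX2-1 and with AP-1, and the division genes they influence are under the control of RB, E2F, the DREAM complex and FOXM1.

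Depth was similar in the libraries compared, from 31964385 to 40673480 estimated reads. Levels are given as counts per 1e6 reads after TMM scaling (CPM), and differences as log2 fold changes of BRM knockout over parental with an approximate standard error (SE). Parental replicate 1 stood closer to the knockout than its partners: its median absolute log2 difference to the knockout libraries was 0.49 to 0.52, against 0.60 to 0.67 for parental replicates 2 and 3. Reads on rRNA genes made up 0.154 to 0.220% of the parental and 0.437 to 0.651% of the knockout libraries, and their part in the results was not tested. The labels do not say whether replicates were separate cultures, so p-values reflect the spread between these samples alone, and that spread may be technical. They do not say either whether the knockout was a clone or a pool, or which sites were cut. Since the unedited line is the only control, gene loss cannot be told apart from editing or culture as such.

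SMARCA2 (ENSG00000080503.23, hg38 chromosome 9, 1980290 to 2193624, plus strand) was read first. Its levels were 49.3, 58.0 and 55.5 CPM in the parental libraries and 10.3, 12.01 and 9.36 CPM in the knockout libraries. The groups were far apart and the knockout libraries lay close together. The change was -2.36 ± 0.23 (SE, n = 3 per group, edgeR adjusted p = 1.1e-04), so that transcripts of the edited gene were reduced but not absent. Transcripts that begin at the 5′ end of the gene held 92.0% of its parental reads and 81.0% of the reads left in the knockout, and those that begin further downstream held 7.96% and 19.0%. The test of the transcript shares of SMARCA2 did not pass (edgeR Simes adjusted p = 1.0), and in the BRG1 knockout the downstream starts held 27.2%. RNA left over an edited gene does not measure its protein. SMARCA4 (ENSG00000127616.18, chromosome 19, 10960825 to 11079426, plus strand) had levels of 244, 216 and 212 CPM in the parental libraries and of 239.8, 245 and 249 CPM in the knockout, and these ranges overlapped (log2 0.13 ± 0.13, edgeR adjusted p = 0.46). With an offset for GC content and transcript length the sign of that change turned, to -0.34 (edgeR adjusted p = 0.025).

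In all, 3814 genes rose in the BRM knockout and 2991 fell (edgeR quasi-likelihood test, Benjamini-Hochberg adjusted p under 0.05), or 21% and 16.4% of the genes tested and 37.4% together. These shares are the background against which the counts below are to be read, as is the median change of all genes tested, 0.09. A change of at least 2-fold was seen in 2328 of the genes that rose and 1608 of those that fell. Protein-coding genes accounted for 3273 of the rises and 2637 of the falls. Groups without overlap were common: of 18205 genes tested, 5840 had all knockout libraries above all parental ones, and 4745 had them all below. Without parental replicate 2 or 3 the rises numbered 2457 and 2469.

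The other subunits of the complex were read next. Of 29 SWI/SNF subunit genes tested, SMARCA2 included, 3 rose, 8 fell and 18 did not pass (median -0.15). The falls numbered 4 without parental replicate 3, 5 without BRM knockout replicate 3 and 13 without BRG1 knockout replicate 3, and the median was -0.28 without BRM knockout replicate 1. SMARCD3, a subunit known from muscle and neural complexes, was at 1.47, 0.391 and 0.549 CPM in the parental libraries and at 9.12, 6.96 and 6.28 CPM in the knockout (log2 3.23 ± 0.42, edgeR adjusted p = 3.5e-04). ACTL6A, the actin-related subunit of dividing cells, was at 81.9, 101 and 99.6 CPM against 50.4, 47.3 and 44.8 CPM and fell by 0.99 ± 0.15. SS18, a subunit of the BAF and GBAF complexes, fell by 0.95 ± 0.17, from 56.5 to 87.0 CPM in the parental libraries to 37.8 to 39.4 CPM. None of these 3 genes overlapped between the groups. The core subunit SMARCB1 was at 99.3 to 108 CPM and 97.5 to 109 CPM, with a change of 0.02 ± 0.15 that did not pass (edgeR adjusted p = 0.94).

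Genes of cell division fell together in the BRM knockout, and they did so to the last member of 2 long lists. All 46 DNA replication factors fell (median -2.21, from -3.82 to -1.26), as did all 63 mitosis genes (median -2.98, from -3.85 to -1.29), each without overlap between the groups. Of 32 genes of homologous recombination and the Fanconi pathway, which repair breaks and crosslinks of replicating DNA, 31 fell (median -2.38). The exception was FANCF, with a change of -0.33 (edgeR adjusted p = 0.1). The counts of replication and mitosis genes stayed at 46 and 63 with any 1 library left out, and that of the repair genes ran from 30 to 32. In bulk RNA, fewer dividing cells and less RNA per dividing cell cannot be told apart.

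MCM10, which helps to fire replication origins, was at 34.5, 52.4 and 49.4 CPM in the parental libraries and at 5.31, 2.89 and 1.44 CPM in the knockout (log2 -3.82 ± 0.44, edgeR adjusted p = 2.4e-04). TYMS, the thymidylate synthase, was at 74.2, 110.2 and 105 CPM against 16.04, 8.55 and 5.09 CPM (log2 -3.28 ± 0.41, edgeR adjusted p = 3.8e-04). The levels of both genes were lowest in BRM knockout replicate 3 and highest, within the knockout, in replicate 1. The histone chaperone ASF1B, the kinase TK1 of thymidine salvage and the polymerase alpha subunit POLA2 fell by 3.36 ± 0.40, 3.37 ± 0.34 and 2.76 ± 0.29. PCNA, the sliding clamp of replication, fell by 2.15 ± 0.32, from 171, 229 and 259 CPM to 75.1, 39.1 and 33.8 CPM.

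The mitosis genes had another order among the knockout libraries. HMMR, a spindle protein, was at 76.2, 127 and 128 CPM in the parental libraries and at 2.63, 15.9 and 4.50 CPM in the knockout (log2 -3.85 ± 0.66, edgeR adjusted p = 0.002). MKI67, the proliferation marker that coats mitotic chromosomes, stood at 221, 392 and 347 CPM against 16.8, 42.9 and 13.3 CPM. CCNB1, the mitotic cyclin, stood at 219, 272 and 264 CPM against 15.5, 56.2 and 16.7 CPM and fell by 3.10 ± 0.47. Here BRM knockout replicate 2 was the highest of the knockout libraries, still well under the parental range. Over all mitosis genes, the median difference from the parental mean was -3.81, -2.09 and -3.84 in BRM knockout replicates 1, 2 and 3, and over the replication factors it was -1.82, -2.34 and -2.90. FOXM1, the transcription factor that drives late cycle genes, fell by 3.64 ± 0.45. ANLN, the scaffold of the cleavage furrow, fell by 3.73 ± 0.55. BRCA1 (57.8, 102 and 98.1 CPM against 8.34, 10.3 and 4.15 CPM) and the exonuclease EXO1 fell by 3.50 ± 0.38 and 3.41 ± 0.41, and PALB2, which links BRCA1 to BRCA2, fell by 0.98 ± 0.23.

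Of 33 genes of the G1 phase, among them cyclins, CDKs, CDK inhibitors, RB proteins and E2F factors, 20 fell, 6 rose and 7 did not pass (median -0.76). The rises numbered 3 without parental replicate 2 or BRM knockout replicate 1. E2F1, the activator of S-phase genes, was at 52.0, 55.7 and 66.1 CPM in the parental libraries and at 17.2, 4.40 and 4.81 CPM in the knockout (log2 -2.72 ± 0.50, edgeR adjusted p = 0.0025). CDC25A, the phosphatase that activates CDK2, fell by 2.30 ± 0.32, and CDK2 itself by 1.54 ± 0.17. The pocket proteins RB1 and RBL1, which hold E2F factors in check, fell too, by 1.20 ± 0.28 and 2.13 ± 0.40. Cyclin D1, CCND1, was at 733, 868 and 754 CPM in the parental libraries and at 864, 589.9 and 633 CPM in the knockout, and these ranges overlapped (log2 -0.17 ± 0.21, edgeR adjusted p = 0.55). Of 7 CDK inhibitors on the list 3 rose, 2 fell and 2 did not pass. CDKN1A, which encodes p21, rose from 77.3, 42.3 and 43.9 CPM to 363, 294 and 408 CPM (log2 2.70 ± 0.37, edgeR adjusted p = 5.0e-04). CDKN1C, which encodes p57, rose from 2.36, 1.44 and 1.72 CPM to 6.57, 10.8 and 5.62 CPM (log2 2.06 ± 0.32), and CDKN1B, which encodes p27, rose by 0.45 ± 0.15. CDKN2C, which encodes p18 and inhibits CDK4 and CDK6, fell by 1.86 ± 0.26. For CDKN1A the highest parental library was replicate 1, and every knockout library lay well above it.

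**Figure D1:**
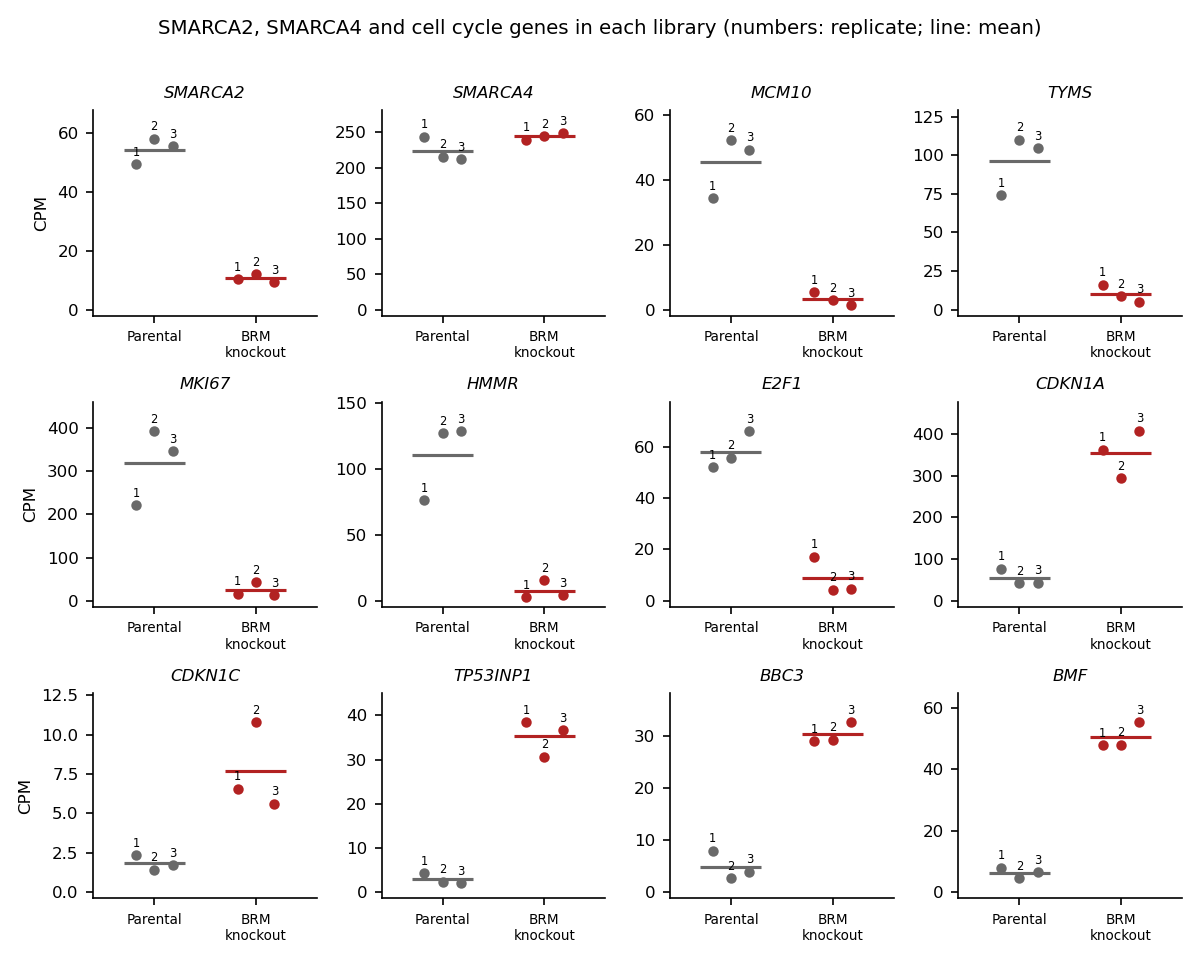
Levels (CPM) in each parental (3) and BRM knockout (3) library, on linear axes, for the motor genes SMARCA2 and SMARCA4, division genes (MCM10, TYMS, MKI67, HMMR, E2F1), CDK inhibitors (CDKN1A, CDKN1C) and genes of the p53 and BCL2 lists (TP53INP1, BBC3, BMF); each point is a library and each line a group mean. The division genes lie lower in every knockout library, with MKI67 at 221 to 392 CPM against 13.3 to 42.9 CPM, whereas CDKN1A lies higher, at 42.3 to 77.3 CPM against 294 to 408 CPM.

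The promoters of the lists that fell were read for the elements through which such genes are known to be controlled. These are the CHR element (TTTGAA), bound by the MuvB core of the DREAM complex, the CCAAT box, bound by NF-Y, and an E2F core (GCGCGAAA or GCGGGAAA). RefSeq promoters (GRCh38.p14, 250 bases before to 50 after the start) were searched on both strands. The stretches below run 5′ to 3′ along the gene and end at the base before the start. They were chosen as the mitosis and replication members with the largest falls among those with these letters upstream of the start. Capitals mark CHR elements and CCAAT boxes in the mitosis genes HMMR (chr5:163460482-163460631, plus strand) and MKI67 (chr10:128126424-128126573, minus strand), and E2F cores in the replication genes TYMS (chr18:657503-657652, plus strand) and POLA2 (chr11:65261812-65261961, plus strand), on either strand.
HMMR: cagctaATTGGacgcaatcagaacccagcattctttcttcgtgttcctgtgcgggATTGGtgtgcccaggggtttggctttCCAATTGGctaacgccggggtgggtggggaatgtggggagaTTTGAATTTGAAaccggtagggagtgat
MKI67: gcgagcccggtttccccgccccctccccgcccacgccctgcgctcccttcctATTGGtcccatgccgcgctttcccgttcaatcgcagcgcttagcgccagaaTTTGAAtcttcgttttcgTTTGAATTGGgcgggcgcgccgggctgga
TYMS: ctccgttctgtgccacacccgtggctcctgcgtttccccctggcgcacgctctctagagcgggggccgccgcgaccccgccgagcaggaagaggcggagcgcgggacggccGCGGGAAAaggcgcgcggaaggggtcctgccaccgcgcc
POLA2: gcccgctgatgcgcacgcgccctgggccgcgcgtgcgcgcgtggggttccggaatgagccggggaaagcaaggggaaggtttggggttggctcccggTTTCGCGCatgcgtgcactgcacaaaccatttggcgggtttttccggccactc

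In HMMR a pair of CHR elements begins 28 and 22 bases before the start, with CCAAT boxes further upstream, and in MKI67 the CHR elements begin 47 and 29 bases before it. In MKI67 the CHR element nearest the start shares a base with a CCAAT box. The E2F core of TYMS begins 39 bases before the start and that of POLA2 53 bases before it. Of 55 mitosis promoters found under the gene symbol, 37 (67.3%) held a CHR element and 41 (74.5%) a CCAAT box, and 29 (52.7%) held both. Among the 12462 promoters of all genes tested these shares were 10.2%, 36.2% and 4.33%. The E2F core was in 2 of the 55 mitosis promoters (3.64%) and in 14 of 40 replication promoters (35%), against 3.40% of the promoters of genes tested, and in 5 of 28 promoters of the repair genes (17.9%). CHR elements were in 3 of the 40 replication promoters (7.5%). These matches describe the sequences and show neither binding nor a cause of the falls.

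**Figure D2:**
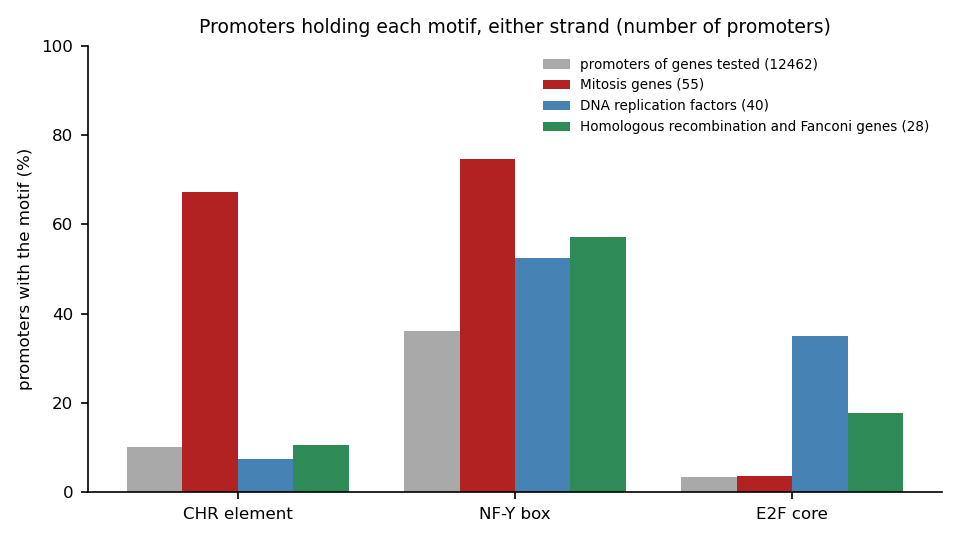
Bars give the percentage of RefSeq promoters (250 bases before to 50 after the start) that hold each element (CHR, NF-Y box, E2F core) on either strand, for all genes tested (12462 promoters) and for the mitosis (55), DNA replication (40) and recombination and Fanconi (28) lists. The CHR element stands out in the mitosis list at 67.3%, and the E2F core in the replication list at 35%.

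Genes known as targets of p53 moved in both directions. Of 25 tested, 13 rose, 5 fell and 7 did not pass (median 0.87). The falls numbered 2 or 3 without any 1 parental library, BRM knockout replicate 1 or BRM knockout replicate 3. TP53INP1, an autophagy and cell death regulator, rose from 4.36, 2.43 and 2.03 CPM to 38.4, 30.7 and 36.7 CPM (log2 3.59 ± 0.29, edgeR adjusted p = 6.6e-05). BBC3, which encodes the cell death activator PUMA, rose from 8.02, 2.71 and 3.96 CPM to 29.1, 29.4 and 32.7 CPM (log2 2.64 ± 0.38). FDXR, a mitochondrial reductase, and BTG2, an antiproliferative factor, rose by 2.15 ± 0.29 and 2.33 ± 0.34. DDB2, a sensor of UV damage, and TIGAR, a regulator of glycolysis, fell by 1.25 ± 0.20 and 1.48 ± 0.34.

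Further members of the BCL2 family rose, both those that promote and those that block cell death. Of 16 tested, 6 rose, 1 fell and 9 did not pass (median 0.39), and the 6 rises stayed at 6 with any 1 library left out. BMF, a BH3-only activator of cell death, rose from 7.98, 4.67 and 6.63 CPM to 47.9, 48.0 and 55.3 CPM (log2 2.97 ± 0.20, edgeR adjusted p = 2.7e-05), and its levels barely varied within the knockout. HRK, another activator of this class, rose from 0.952, 0.626 and 1.14 CPM to 6.68, 6.71 and 7.84 CPM. The survival gene BCL2L1 rose by 1.09 ± 0.16 and the activator BCL2L11 by 0.85 ± 0.17. BCL2L12 fell by 1.39 ± 0.24.

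Genes of the integrated stress and unfolded protein responses, which are induced by amino acid shortage or misfolded protein in the endoplasmic reticulum, held 21 rises and 1 fall among 38, while 16 did not pass (median 0.83). The rises ran from 18 to 22 with 1 library left out. HERPUD1, of the degradation of misfolded protein, rose from 50.1, 36.3 and 36.2 CPM to 132, 171 and 144 CPM (log2 1.87 ± 0.18, edgeR adjusted p = 1.2e-04). The glutathione-degrading enzyme CHAC1 was at 4.30, 5.71 and 6.63 CPM against 15.8, 27.1 and 17.2 CPM, and the asparagine synthetase ASNS at 37.8, 36.8 and 42.0 CPM against 69.0, 165 and 83.6 CPM. For both of these BRM knockout replicate 2 stood above its partners, and in DDIT3 (CHOP) it was at 40.05 CPM against 12.1 and 14.8 CPM in the others and 10.5 to 14.6 CPM in the parental libraries. The change of DDIT3 did not pass (log2 0.84 ± 0.39, edgeR adjusted p = 0.12). ATF4, the transcription factor at the head of the pathway, rose by 0.62 ± 0.15, and SESN2, which senses leucine, by 1.26 ± 0.20. ATF5 fell by 1.36 ± 0.21. Over the list the median difference from the parental mean was 0.48, 1.02 and 0.62 in BRM knockout replicates 1, 2 and 3.

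**Figure D3:**
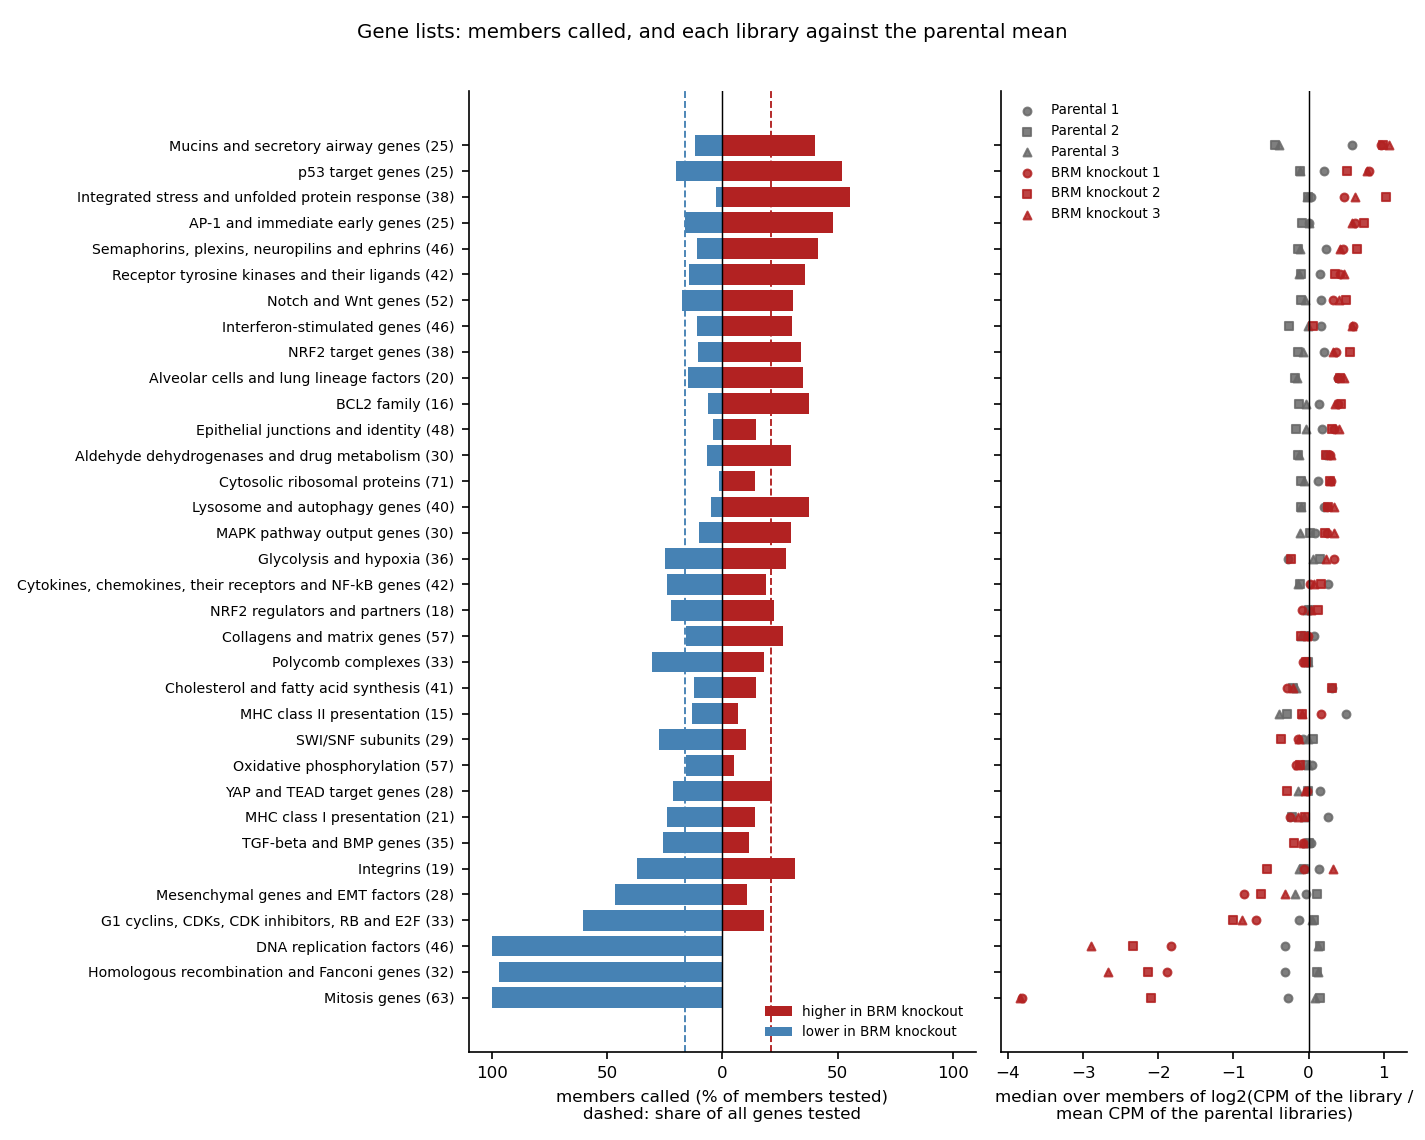
For 34 gene lists, the left panel gives the percentage of tested members that rose or fell (edgeR adjusted p under 0.05), with dashed lines at the shares of all genes tested (21% higher, 16.4% lower). The right panel gives each library's median log2 difference from the parental mean over the members, and there the 3 knockout libraries of the mitosis list lie at -3.81, -2.09 and -3.84.

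The labelled origin of the cells was checked against markers. The 8 epithelial markers summed to 6698 to 7004 CPM in the parental libraries and to 6683 to 7815 CPM in the knockout, and 1 of them rose. CDH1, E-cadherin, was at 550.4, 529 and 499 CPM in the parental libraries and at 777, 586 and 799 CPM in the knockout (log2 0.45 ± 0.66, edgeR adjusted p = 0.62). All its knockout libraries thus lay above the parental ones. The fit shares its spread with the BRG1 knockout libraries, where CDH1 varied from 6.64 to 86.1 CPM. Surfactant genes SFTPB, SFTPC and SFTPD had too few reads to be tested. Neuroendocrine markers summed to at most 1.32 CPM in each parental and BRM knockout library, and CALCA, GRP, INSM1 and NEUROD1 had 0 reads in all 6.

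Of 48 genes of epithelial junctions and identity 7 rose, 2 fell and 39 did not pass (median 0.37), so the list as a whole showed few calls. In 22 members all knockout libraries lay above the parental ones, and in 4 all lay below. The rises numbered 2, 3, 4, 4 and 15 without parental replicate 2, parental replicate 3, BRM knockout replicate 1, BRG1 knockout replicate 2 and BRG1 knockout replicate 3. Some lineage factors of the lung and airway rose. NKX2-1, the lineage factor of lung epithelium and lung adenocarcinoma, rose from 105, 65.4 and 71.9 CPM to 263, 170.3 and 275 CPM (log2 1.55 ± 0.24, edgeR adjusted p = 8.1e-04). TP63, the factor of basal airway cells, rose from 69.9, 31.8 and 37.7 CPM to 258, 176 and 317 CPM (log2 2.43 ± 0.45, edgeR adjusted p = 0.0027). FOXJ1, the factor of ciliated cells, rose from 3.29, 1.98 and 1.17 CPM to 29.3, 11.4 and 20.8 CPM (log2 3.27 ± 0.49). In all of these the groups did not overlap, parental replicate 1 was the highest parental library and BRM knockout replicate 2 the lowest knockout library. DNAH5, an axonemal dynein, rose by 2.86 ± 0.31, while the cilia gene RSPH1 did not pass (log2 -1.14 ± 0.66, edgeR adjusted p = 0.2). Of 6 tested markers each of ciliated cells and of basal cells 3 rose and 3 did not pass. Only 1 basal marker, TP63, was called without parental replicate 3. KRT5 did not pass (edgeR adjusted p = 0.16), at 0.154, 0.0783 and 0.0238 CPM in the parental libraries and 0 reads in the knockout.

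Of 25 mucins and secretory airway genes tested 10 rose and 3 fell, while 12 did not pass (median 1.05), and the rises numbered 6 without parental replicate 2 or BRM knockout replicate 3. Without parental replicate 1 the median was 1.77. Another 20 genes of the list, among them SCGB1A1, SCGB3A1 and TFF3, had too few reads to be tested. The mucin MUC5AC and the factor SPDEF overlapped between the groups and did not pass (edgeR adjusted p = 0.50 and 0.11). MUC5B, a gel-forming mucin of airway secretions, rose from 85.9, 31.6 and 42.0 CPM to 675, 539 and 669 CPM (log2 3.56 ± 0.33, edgeR adjusted p = 1.0e-04). MUC4, a membrane mucin, rose from 4.33, 1.17 and 1.45 CPM to 56.6, 127 and 83.4 CPM (log2 5.28 ± 0.54), and MUC16, which encodes CA-125, rose by 3.16 ± 0.39. TMPRSS2, a surface protease of secretory cells, was at 0.798, 0 and 0.238 CPM in the parental libraries and at 14.6, 16.05 and 12.2 CPM in the knockout. The secretory pathway factor CREB3L1 and the glycosyltransferase GALNT5 fell by 1.61 ± 0.41 and 2.15 ± 0.39. Parental replicate 1 lay above the other parental libraries on this list, with a median difference from the parental mean of 0.58 against -0.45 and -0.39, and the knockout libraries lay at 0.97, 0.99 and 1.06.

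Among alveolar and lung lineage genes 7 of 20 rose, 3 fell and 10 did not pass (median 0.43), with 4 rises without parental replicate 2 or 3. ABCA3, the lipid pump of surfactant storage, rose from 3.35, 2.14 and 1.88 CPM to 17.6, 17.0 and 16.6 CPM (log2 2.80 ± 0.25, edgeR adjusted p = 9.2e-05). LPCAT1, which makes surfactant lipid, rose from 198, 121 and 123 CPM to 1256, 543 and 801 CPM. The distal progenitor factor SOX9, the caveolin CAV1 and RTKN2 fell by 1.08, 1.54 and 2.25. The SOX9 transcript SOX9-201 overlapped, at 97.3, 34.4 and 117.7 CPM in the parental libraries and 61.7, 75.2 and 69.3 CPM in the knockout. SOX9-202 was at 12.7, 149.1 and 25.2 CPM in the parental libraries and was listed at 0 in the knockout. As a list, epithelial junction genes had few calls: 7 of 48 rose, 2 fell and 39 did not pass (median 0.37). Leaving out parental replicate 2, parental replicate 3 or BRM knockout replicate 1 gave 2, 3 and 4 rises. Without BRG1 knockout replicate 3 there were 15. In that list GRHL1, an epithelial transcription factor, rose by 2.43 ± 0.43, and PKP2, a desmosome plaque protein, fell by 2.72 ± 0.20, from 66.1, 84.4 and 83.8 CPM to 10.97, 13.8 and 10.9 CPM.

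Of 28 mesenchymal genes 13 fell and 3 rose, while 12 did not pass (median -0.53), and 1 rose without parental replicate 3. SPARC, a matrix glycoprotein, fell from 92.0, 88.8 and 67.1 CPM to 2.74, 1.45 and 1.72 CPM (log2 -5.39 ± 0.29, edgeR adjusted p = 1.2e-05). AXL, a receptor kinase tied to the mesenchymal state and drug tolerance, fell from 17.5, 33.3 and 18.5 CPM to 0.912, 0.994 and 1.57 CPM. CDH2, N-cadherin, fell from 49.995, 96.4 and 75.1 CPM to 11.2, 9.85 and 11.03 CPM, and ZEB1, a repressor of epithelial genes, fell by 2.64 ± 0.44. The intermediate filament gene VIM fell from 343, 763 and 583 CPM to 141, 146 and 188 CPM (log2 -1.83 ± 0.27). The smooth muscle actin ACTA2 went against them and rose by 1.54 ± 0.36. Fibroblast markers rose in 1 of 7 (COL1A1, log2 1.69 ± 0.24) and fell in 1, and the summed blood cell markers stood at 15.9 to 22.1 CPM in the parental libraries and at 18.3 to 58.4 CPM in the knockout. Of 5 endothelial markers 2 rose, chiefly KDR, the VEGF receptor, from 6.02, 3.94 and 3.70 CPM to 72.5, 43.7 and 53.4 CPM (log2 3.64 ± 0.28).

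The BRG1 knockout libraries give values for the same genes, measured against the same 3 parental libraries, so the comparisons are not independent. NKX2-1 was at 0.0284, 0.0263 and 0 CPM there, against its rise in the BRM knockout. MUC5B was at 0.909, 0.816 and 0.941 CPM, and TP63 at 1.96, 0.605 and 2.68 CPM. On the mesenchymal side SPARC was at 1460.3, 1766 and 2149 CPM in the BRG1 knockout and AXL at 129.6, 163 and 233 CPM. These 5 genes thus lay on opposite sides of the parental libraries in the 2 knockouts. Other genes and the division lists lay on the same side. The median change in the BRG1 knockout was -1.14 over the mitosis genes, -0.83 over the replication factors and -1.03 over the recombination and Fanconi genes. SMARCD3, BMF and BBC3 rose there too, by 4.25, 3.58 and 2.27 (edgeR adjusted p = 3.2e-05, 1.3e-06 and 8.4e-04). MAF, a large transcription factor of the AP-1 superfamily, was likewise above the parental libraries, at 55.1, 74.2 and 69.5 CPM in the BRG1 knockout.

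**Figure D4:**
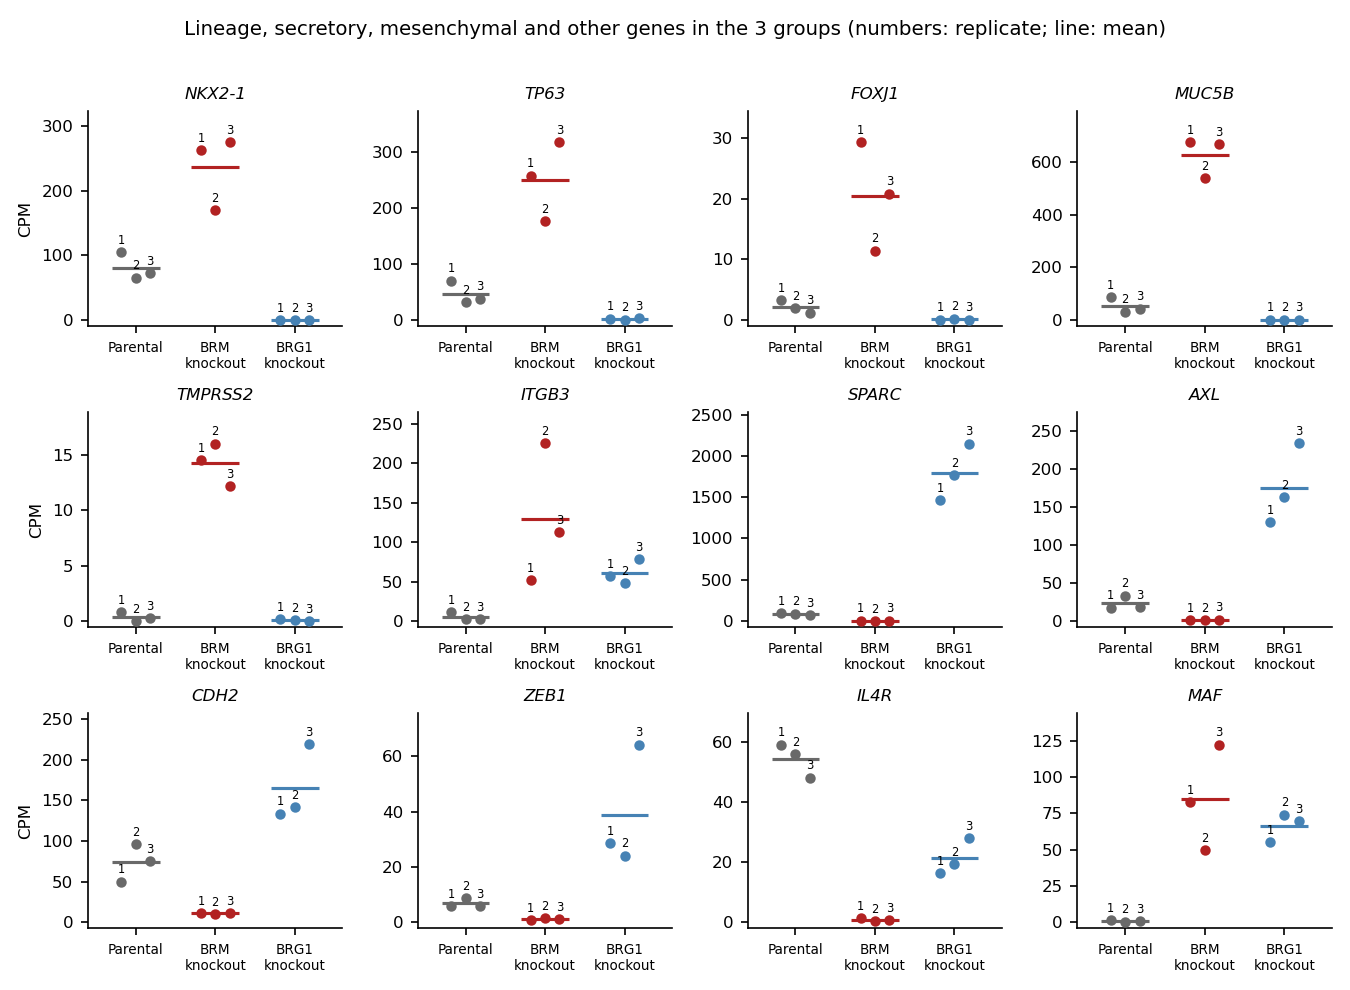
Levels (CPM) in each parental, BRM knockout and BRG1 knockout library (3 each), on linear axes, for lineage factors, secretory genes, mesenchymal genes and some of the genes with the largest changes; each point is a library and each line a group mean. SPARC stands at 67.1 to 92.0 CPM in the parental libraries, at 1.45 to 2.74 CPM in the BRM knockout and at 1460.3 to 2149 CPM in the BRG1 knockout.

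Members of the matrix and integrin lists were called in both directions. Of 57 collagens and matrix genes 15 rose, 9 fell and 33 did not pass (median -0.02). Members called in either direction made up 42.1% of this list, near the 37.4% of all genes tested. With 1 library left out its rises numbered 11 to 16 and its falls 6 to 12. The basement membrane collagens COL4A3 and COL4A4, which are transcribed away from each other on chromosome 2, rose together: COL4A3 from 0.461, 0.157 and 0.286 CPM to 5.77, 5.27 and 5.09 CPM, and COL4A4 from 1.66, 1.54 and 1.60 CPM to 10.1, 13.6 and 10.2 CPM. COL16A1 and the thrombospondin THBS2 fell by 3.66 ± 0.46 and 4.10 ± 0.85. Integrins rose in 6 of 19 and fell in 7 (median -0.45, and -0.20, -0.25 and -0.26 without BRM knockout replicate 1, BRM knockout replicate 2 and parental replicate 1). Without BRM knockout replicate 3 these counts were 3 and 3, without parental replicate 2 they were 3 and 4, and 3 rose without parental replicate 3. ITGB3, a receptor chain for vitronectin, rose from 11.2, 2.66 and 2.07 CPM to 52.0, 225 and 113 CPM (log2 4.62 ± 0.75, edgeR adjusted p = 0.0015), with the widest spread in the knockout. ITGB4, the laminin receptor chain of hemidesmosomes, rose by 1.24 ± 0.21, and its partner ITGA6 fell by 1.29 ± 0.31. The fibronectin receptor chain ITGA5 fell from 18.8, 29.2 and 28.4 CPM to 3.86, 9.54 and 4.91 CPM.

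Guidance genes, that is semaphorins, plexins, neuropilins and ephrins with their receptors, rose in 19 of 46 and fell in 5 (median 0.59). Without parental replicate 3 these counts were 12 and 3, and 3 fell without parental replicate 2 or BRM knockout replicate 3. The plexin PLXNB1, a receptor for SEMA4D, rose by 2.20 ± 0.33, from 39.0, 18.2 and 20.2 CPM to 138, 73.5 and 142 CPM. SEMA5A (ENSG00000112902.11, chromosome 5, 9035026 to 9546075, minus strand) fell from 27.9, 22.3 and 23.1 CPM to 0.536, 0.0903 and 0.152 CPM (log2 -6.52 ± 0.54, edgeR adjusted p = 6.6e-05). The long noncoding RNA SNHG18 (chromosome 5, 9546200 to 9550609, plus strand) begins next to it and went from 1063 reads in the parental libraries to 1 read in the knockout libraries together, that is 1088.4 times fewer (95% counting interval 194.92 to 43028). This pair of neighbours was thus nearly silent in all 3 knockout libraries. EFNB2, the ephrin of arterial vessels, and the ephrin receptor EPHB1 fell by 2.05 ± 0.27 and 3.28 ± 0.37.

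Of 42 receptor tyrosine kinases and ligands 15 rose and 6 fell, while 21 did not pass (median 0.48), with 3 falls without parental replicate 2 or 3 and a median of 0.31 without BRM knockout replicate 1. Growth factors were among the rises: PDGFB from 15.4, 5.56 and 6.15 CPM to 59.8, 73.0 and 65.2 CPM, IGF2 from 6.54, 7.80 and 7.35 CPM to 38.3, 55.2 and 47.4 CPM, and TGFA, a ligand of EGFR, from 104, 79.4 and 78.6 CPM to 323, 208 and 310.1 CPM. Among receptors ERBB2 rose from 158, 94.1 and 111 CPM to 316, 355 and 336 CPM, and the insulin receptor INSR by 1.99 ± 0.29. EGFR was at 113, 163 and 139 CPM against 81.0, 98.2 and 101 CPM, a change that did not pass (log2 -0.57 ± 0.29, edgeR adjusted p = 0.15). Of 30 genes that report MAPK output 9 rose, 3 fell and 18 did not pass (median 0.25), and the falls numbered 5 without BRG1 knockout replicate 3, and the median was 0.15 without BRM knockout replicate 1. DUSP6, the ERK phosphatase, rose from 122, 102 and 86.2 CPM to 294, 199.7 and 371 CPM (log2 1.48 ± 0.23, edgeR adjusted p = 8.5e-04), while PHLDA1 fell by 0.78 ± 0.16.

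Of 25 AP-1 and immediate early genes 12 rose and 4 fell, while 9 did not pass (median 0.67). MAF had the largest rise of all genes under the naming rule, from 1.07, 0.235 and 0.525 CPM to 82.9, 49.6 and 122 CPM (log2 7.15 ± 0.51, edgeR adjusted p = 3.8e-05). JUNB rose by 1.54 ± 0.28 and the stress factor ATF3 by 2.10 ± 0.30. FOSL1, an AP-1 member typical of mesenchymal cells, fell from 185, 273 and 195 CPM to 37.9, 54.0 and 46.9 CPM, and the endothelial factor KLF2 fell by 3.48 ± 0.41. Members of the family thus moved in both directions.

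In the TGF-beta and BMP pathway 4 of 35 genes rose, 9 fell and 22 did not pass (median -0.22), and 7 rose without BRG1 knockout replicate 3. The ligand TGFB1 rose by 1.64 ± 0.24, from 60.2, 44.0 and 37.1 CPM to 117, 162 and 162 CPM, and its receptor TGFBR1 fell by 1.62 ± 0.20, from 68.2, 84.0 and 78.9 CPM to 24.3, 24.4 and 26.2 CPM. The ligands INHBA and BMP4 fell by 4.0 ± 0.53 and 1.93 ± 0.18. FSTL4, a follistatin-like protein, rose from 0.614, 0.391 and 0.668 CPM to 46.7, 21.7 and 56.0 CPM. Of 52 Notch and Wnt genes 16 rose (10 without parental replicate 3) and 9 fell, while 27 did not pass (median 0.47). LFNG, which glycosylates Notch, and the Notch target HES1 rose by 2.23 ± 0.33 and 1.10 ± 0.15, and the Wnt target AXIN2 fell by 1.51 ± 0.27.

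Among 46 interferon-stimulated genes 14 rose and 5 fell, while 27 did not pass (median 0.45). MX1, an antiviral GTPase, rose from 4.79, 2.48 and 3.65 CPM to 57.7, 21.6 and 49.0 CPM (log2 3.56 ± 0.53, edgeR adjusted p = 8.5e-04), and IRF9, the DNA-binding part of the factor that interferon alpha activates, from 30.7, 21.9 and 24.9 CPM to 152, 81.2 and 153 CPM. IFI6 rose by 2.59 ± 0.49. In these 3 genes BRM knockout replicate 2 was the lowest knockout library, and over the whole list its median difference from the parental mean was 0.07, against 0.59 and 0.58 in replicates 1 and 3. GBP4, a GTPase induced by interferon gamma, fell from 17.2, 3.03 and 6.68 CPM to 0.429, 0.602 and 0.759 CPM, and XAF1 fell by 2.61 ± 0.61. MHC class I presentation genes rose in 3 of 21 (0 without parental replicate 2 or 3) and fell in 5 (median -0.19, and -0.08 and -0.30 without parental replicates 1 and 2). The peptide transporter chain TAP2 fell by 1.5 ± 0.17. IL4R, the receptor chain for interleukin 4 and 13, fell from 59.2, 55.9 and 48.2 CPM to 1.34, 0.361 and 0.734 CPM (log2 -6.05 ± 0.40, edgeR adjusted p = 2.5e-05).

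The NRF2 pathway, the inducible defence against oxidants and electrophiles, was read by regulators and targets. NFE2L2, which encodes NRF2, was at 85.9, 100.4 and 89.6 CPM in the parental libraries and at 111, 104 and 109 CPM in the knockout, a change of 0.23 ± 0.13 that did not pass (edgeR adjusted p = 0.19). KEAP1, which targets NRF2 for degradation, fell from 59.2, 54.0 and 59.1 CPM to 39.6, 35.6 and 37.6 CPM (log2 -0.61 ± 0.13, edgeR adjusted p = 0.0036), and the related factor NFE2L3 fell by 2.53 ± 0.22. Of 38 targets 13 rose, 4 fell and 21 did not pass (median 0.43). The rises numbered 7, 8 and 8 without parental replicate 2, parental replicate 3 and BRM knockout replicate 2. The exporter ABCC3 rose from 25.9, 12.9 and 19.1 CPM to 66.1, 72.3 and 74.6 CPM. TXNRD1, the thioredoxin reductase, fell from 752, 583 and 667 CPM to 296, 419 and 307 CPM (log2 -0.97 ± 0.24). Cystine transporter SLC7A11 and the glutathione synthesis gene GCLM overlapped between the groups, with changes of -0.05 ± 0.48 and -0.08 ± 0.20. The antioxidant response element (TGACNNNGC) was in 7 of 27 target promoters (25.9%) and in 15.1% of promoters of the genes tested. It was also in 12 of 55 mitosis promoters (21.8%), 8 of 40 replication promoters (20%) and 2 of 28 recombination and Fanconi promoters (7.14%).

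In the Polycomb complexes, which silence genes through histone H3 methylation and H2A ubiquitination, 10 of 33 genes fell and 6 rose (median -0.03). The rises numbered 3 without parental replicate 2 or 3, any 1 BRM knockout library or BRG1 knockout replicate 1. EZH2, the methyltransferase, fell from 39.2, 58.9 and 55.6 CPM to 12.9, 14.8 and 13.1 CPM (log2 -1.91 ± 0.20, edgeR adjusted p = 1.5e-04), and its partner EED from 32.0, 33.9 and 35.4 CPM to 14.2, 13.6 and 15.2 CPM. CBX7, a reader of the mark, rose by 1.06 ± 0.23. Among 40 lysosome and autophagy genes 15 rose and 2 fell, while 23 did not pass (median 0.26). PSAP, the precursor of the saposins, rose from 581, 337 and 314 CPM to 1808, 1310.1 and 1745 CPM (log2 1.98 ± 0.26), as did GAA, acid glucosidase (log2 1.87 ± 0.25), and the lysosomal master factor TFEB (log2 1.53 ± 0.35). LAMP1, a lysosomal membrane protein, fell by 0.73 ± 0.14.

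Genes outside these groups were among those with the largest changes. SOD3, the extracellular superoxide dismutase, had 1119 reads in the parental libraries and 1 read in the knockout libraries, that is 1145.7 times fewer (95% counting interval 205.21 to 45293). The orphan receptor GPR158 fell from 13.5, 16.3 and 12.9 CPM to 0.0536, 0.0903 and 0.0759 CPM, and CALB2, the calcium buffer calretinin, fell by 7.92 ± 0.74. On the other side CDH6, a kidney and fetal cadherin, rose from 5.16, 2.04 and 2.74 CPM to 142, 74.8 and 147 CPM (log2 5.20 ± 0.76, edgeR adjusted p = 9.0e-04). S100A14, an epithelial calcium-binding protein, rose from 9.27, 2.90 and 3.91 CPM to 91.5, 108 and 101 CPM. GNAO1, a G protein subunit of neurons, rose from 2.83, 1.54 and 1.19 CPM to 31.2, 30.6 and 30.2 CPM, levels that hardly varied within the knockout. The histone gene H2BC11 fell by 4.39 ± 0.38, and reads on the histone cluster genes made up 0.0685 to 0.083% of the parental and 0.0416 to 0.0661% of the knockout libraries.

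Shares of transcripts within genes were called changed far less often than gene levels. The tests differ, so the rates of calls cannot be compared directly. Of the 8287 genes with at least 2 transcripts tested, 70 changed in their shares (edgeR diffSpliceDGE, Simes p per gene, adjusted p under 0.05), 0.845% of them. Of these 70 genes 69 had a transcript whose share moved by at least 10 percentage points, 40 by at least 20 and 27 by at least 30. In 38 of them (54.3%) the level of the gene was called changed too, against 42.2% of all genes tested for shares, and in 32 it was not called. The count was 39 without parental replicate 2, and 42 without parental replicate 3 or BRM knockout replicate 3. Salmon divides reads that fit several transcripts by estimation, so a transcript listed at 0 was assigned no reads, which does not show that it was absent.

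Within UNG, the uracil DNA glycosylase, the balance between the nuclear and the mitochondrial form was turned. UNG-201, the nuclear form, stood at 97.3, 130.1 and 146 CPM in the parental libraries and at 16.3, 8.42 and 3.52 CPM in the knockout. UNG-202, the mitochondrial form, stood at 22.1, 20.1 and 20.9 CPM and at 59.0, 29.9 and 50.5 CPM. The nuclear form thus held 84.9 ± 3.02% of the reads of the gene (SD, n = 3) in the parental libraries and 16.7 ± 8.81% in the knockout, while the gene fell by 1.38 ± 0.23 (edgeR Simes adjusted p = 0.016 for the shares). That call was lost without parental replicate 2 or 3 (adjusted p = 0.113 and 0.116) and in a fit with a replicate block (0.1). DUT, which clears dUTP, showed values of the same kind: its nuclear form DUT-202 went from 67.2, 79.2 and 87.2 CPM to 18.7, 7.40 and 7.74 CPM, and the mitochondrial form DUT-201 from 14.6, 8.77 and 8.81 CPM to 19.2, 20.1 and 21.3 CPM. The call for DUT (edgeR Simes adjusted p = 0.045) was lost without any 1 parental or BRM knockout library, with adjusted p from 0.0745 to 0.668, and with a replicate block (0.115).

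Other changes of shares held with any 1 library left out. In NOL4L the transcript NOL4L-211 fell from 25.0, 24.2 and 28.2 CPM to 2.67, 4.16 and 3.26 CPM and NOL4L-203 rose from 17.3, 5.75 and 6.73 CPM to 34.8, 40.9 and 37.5 CPM, at a gene level that did not change in the edgeR test (log2 0.18 ± 0.17, adjusted p = 0.42; Simes adjusted p = 0.002 for the shares). TDRKH-203 of TDRKH, a partner of PIWI proteins, held 36.1 ± 8.33% of its gene in the parental libraries (10.3, 11.7 and 13.02 CPM) and was listed at 0 in the 3 knockout libraries, with a gene level that did not pass (log2 0.29 ± 0.22, edgeR adjusted p = 0.32). TAOK3-202, of a stress kinase, went from 10.8, 20.5 and 8.23 CPM to 0 in all 3 knockout libraries. MAP3K7-205, of the kinase TAK1, went from 6.604, 23.2 and 13.97 CPM to 0, 0.268 and 0 CPM, and MAP3K7-204 stood at 16.5, 3.63 and 8.91 CPM against 16.7, 14.3 and 15.7 CPM. In TFDP2, a dimer partner of E2F factors, TFDP2-224 was listed at 0 in the parental libraries and at 24.0, 7.62 and 20.3 CPM in the knockout (edgeR Simes adjusted p = 1.9e-08). With limma's diffSplice that call was lost (adjusted p = 0.0661), as was the NOL4L call when transcripts down to a share of 5% were tested (adjusted p = 0.166). In the BRG1 knockout libraries, set against the same parental ones, TFDP2-224 stood at 113.9, 98.2 and 52.3 CPM.

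NET1, an exchange factor for RhoA, changed both in level and in form. The gene rose from 148, 136 and 129.6 CPM to 482, 300.3 and 471 CPM (log2 1.60 ± 0.19, edgeR adjusted p = 2.2e-04). NET1-202 rose from 86.0, 45.6 and 64.1 CPM to 452, 261 and 441 CPM, while NET1-201 went from 54.1, 82.6 and 59.6 CPM to 6.16, 20.4 and 6.76 CPM. NET1-201 thus held 47.7 ± 12.3% of the reads of the gene in the parental libraries and 3.17 ± 3.14% in the knockout (edgeR Simes adjusted p = 0.025). Without parental replicate 2 or 3, or BRM knockout replicate 1 or 3, that call was lost, with adjusted p from 0.114 to 0.269, as it was with a replicate block (0.0703). DNAJB12, a chaperone of the endoplasmic reticulum membrane, held its main transcript DNAJB12-202 at 19.6, 18.8 and 19.2 CPM against 21.6, 19.4 and 15.4 CPM, and DNAJB12-201 stood at 3.21, 1.69 and 2.47 CPM against 17.2, 17.3 and 19.2 CPM (edgeR Simes adjusted p = 3.8e-06 for the gene). The transcript whose own test passed was DNAJB12-205, with 11.6 ± 2.46% of the gene in the parental libraries and 0 in the knockout, and with transcripts under a share of 20% left out the gene was not called (edgeR Simes adjusted p = 0.242).

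**Figure D5:**
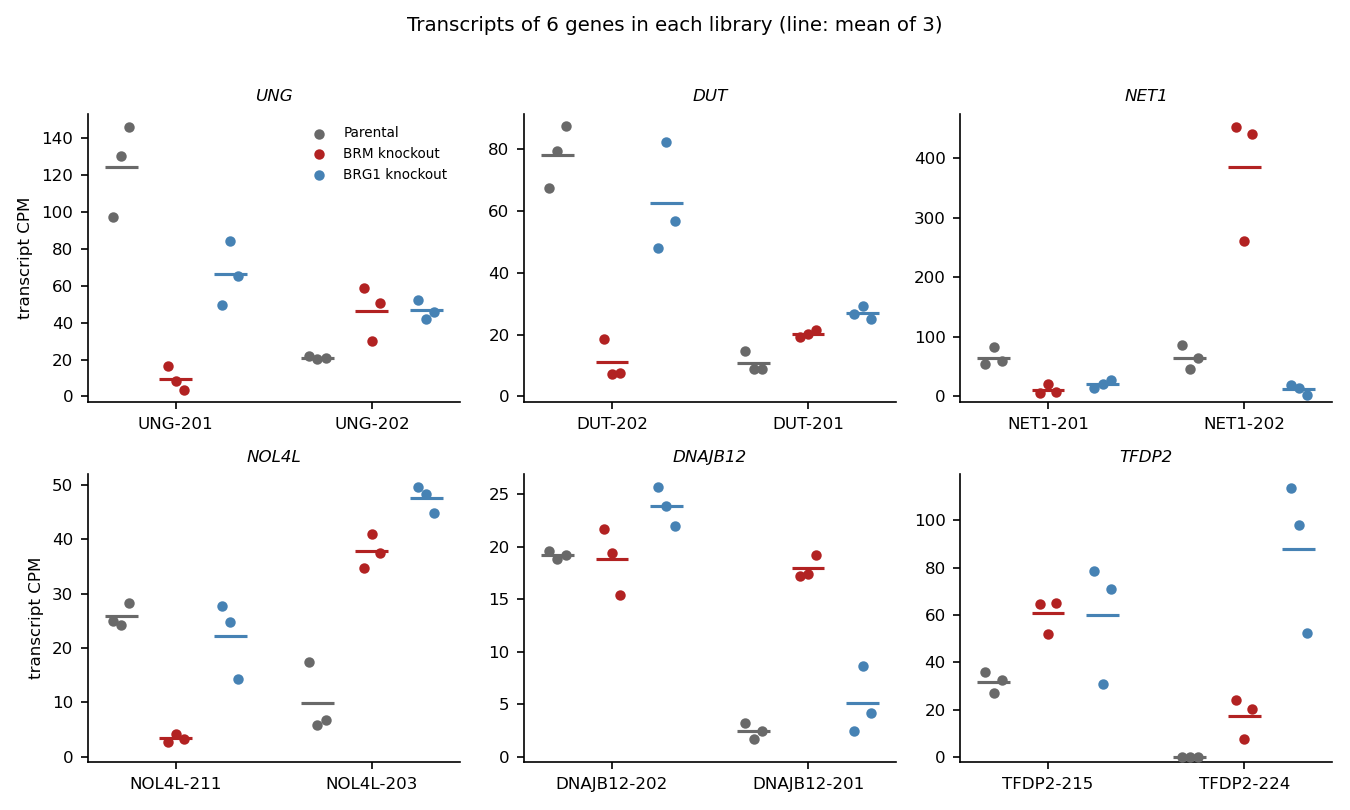
Levels (CPM) of a pair of transcripts in each of UNG, DUT, NET1, NOL4L, DNAJB12 and TFDP2, in each parental, BRM knockout and BRG1 knockout library (3 each); each point is a library and each line a group mean. UNG-201 lies above UNG-202 in every parental library and below it in every BRM knockout library.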

How the data were processed

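RNA-seq libraries of H358 were compared by genotype, BRM knockout against parental, with 3 libraries each. The deposited estimated counts per transcript came from Salmon and were not normalized, per the file headers. TPM stands beside them in the deposited files, per the file headers, and was not used for tests. DESeq2, Salmon and build hg38 are named in the submitters' processing notes. No version, annotation, strand setting or library type is given in the sources used here. Of 203835 transcripts 203746 were assigned to GENCODE 29 genes after dropping the identifier version, and the others took no more than 0.0193% of the reads of any library. Estimated counts were summed per gene, rounded and tested in R 4.3.3 with edgeR 4.0.16 (filterByExpr by group, TMM, robust quasi-likelihood fit) in 1 model of all 9 samples, which left 6 residual degrees of freedom and a biological coefficient of variation of 0.253. Tests were two-sided with Benjamini-Hochberg adjustment over all genes tested and a threshold of 0.05. The SE is the absolute log2 change over the square root of F, an approximation. Shares were tested with edgeR's diffSpliceDGE over transcripts with a mean share of at least 10% in either group. Ratios of reads carry 95% exact intervals, which cover counting error only.

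Named genes are SMARCA2 and SMARCA4, the 20 largest rises and 20 largest falls of protein-coding genes (called, groups not overlapping, the higher group averaging 3 log2 CPM or more), up to 4 members per list in each direction (1 log2 CPM or more), 12 genes by change of transcript share and the 3 long noncoding RNAs with the largest change each way; some of these are not printed. Other genes were named after their values were seen. The members and lists were chosen with earlier results of these data known. The alternatives used DESeq2 1.42.0, limma 3.58.1 (voom and diffSplice), other scalings and filters, offsets for transcript length and GC content (mgcv 1.9.3), a replicate block and leaving out each library. The programs were tested on simulated data. Gene levels gave no sign of pairing by replicate number: the correlation of same-numbered deviations was -0.0792, -0.0365 and 0.00746. The gap between transcript length and effective length was largest in replicate 3 of each group. It was 296, 295 and 302 bases there in parental, BRM knockout and BRG1 knockout. Whether same-numbered samples were prepared together is not stated and was not tested. Some members of the lists are not reported here by name.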

Additional observations from a re-analysis of the deposited data

How the results depend on the processing

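SMARCA2 fell in every alternative run (log2 -2.53 to -2.18). With 1 library left out the genes that rose numbered 2457 to 4033 and those that fell 2071 to 4181. Leaving out parental replicate 1 together with BRG1 knockout replicate 3 gave 4282 and 4250. The excess of rises over falls was not general: a fit of the 6 samples alone gave 4137 and 4252, no filter 3082 and 3307, the length offset 2929 and 3032, and the GC content and length offset 3657 and 3830. Genes with changed transcript shares numbered 70, 39 to 103 with 1 library left out, 158 in the 6 samples alone, 324 with limma's diffSplice, 109 with shares of at least 5% tested and 42 with shares of at least 20%. SMARCA4, which did not pass, turned to -0.34 with the GC content and length offset and to -0.34 with that offset and a replicate block. BACH2 turned to -0.054 with the length offset. Of 254 genes named by the rule, 199 were called in the same direction in all alternatives. With the replicate block 3622 genes rose, 2770 fell and 48 changed in transcript shares. Deviations of same-numbered samples were hardly correlated over genes, and the cause of the lost calls was not tested. Depth limits genes of few reads, such as DPF3 or MUC13, whose fitted changes depend on a handful of reads.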

Other observations

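Metabolic lists had small medians, though members of some moved in both directions. Of 71 cytosolic ribosomal protein genes 10 rose, 1 fell and 60 did not pass (median 0.28), and without BRG1 knockout replicate 3 the counts were 26 and 6. The rises numbered 4 and 5 without parental replicates 2 and 3, and 5 and 6 without BRM knockout replicates 1 and 3. Together these genes held 4.97 to 5.80% of the reads in parental libraries and 6.20 to 6.31% in the BRM knockout. Of 57 oxidative phosphorylation genes 9 fell and 3 rose, while 45 did not pass (median -0.16), with 20 falls without BRG1 knockout replicate 2 or 3 and 5 without parental replicate 2 or BRM knockout replicate 3. The rises numbered 1 without parental replicate 2 or 3, BRM knockout replicate 1 or 2, or BRG1 knockout replicate 1. Glycolysis and hypoxia genes rose in 10 of 36 and fell in 9 (median 0.25), with 2 to 11 rises and 5 to 10 falls with 1 library left out. There were 2 rises without parental replicate 3 or BRM knockout replicate 1, 3 without BRM knockout replicate 3, 4 without parental replicate 2, 5 without BRG1 knockout replicate 1 and 6 without parental replicate 1. The 5 falls were without parental replicate 2, and the median was 0.08 without BRM knockout replicate 1 and 0.09 without parental replicate 1. Members called in either direction made up 52.8% of this list, against 37.4% of all genes tested. The glycolytic enzyme ENO1 rose from 2650.1, 3037 and 3085 CPM to 5843, 4448 and 5756 CPM (log2 0.87 ± 0.17, edgeR adjusted p = 0.0029). ALDOA, GAPDH, PKM and LDHA, enzymes of the same pathway, fell without overlap between the groups (log2 -0.99 ± 0.20, -0.89 ± 0.24, -0.86 ± 0.21 and -0.99 ± 0.27). In cholesterol and fatty acid synthesis 6 of 41 rose, 5 fell and 30 did not pass (12 falls without BRM knockout replicate 2, 3 without BRM knockout replicate 3 or parental replicate 1, and 8, 8 and 10 without BRG1 knockout replicates 1, 2 and 3). SREBF1, the transcription factor of lipid synthesis, rose by 1.25 ± 0.20, from 341, 257 and 281 CPM to 761, 671 and 657 CPM.

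Among 30 aldehyde dehydrogenases and drug metabolism genes 9 rose, 2 fell and 19 did not pass (median 0.35). The falls numbered 4 without BRG1 knockout replicate 1 and 1 without parental replicate 1 or BRM knockout replicate 3. ALDH2, the mitochondrial acetaldehyde dehydrogenase, rose from 3.10, 3.29 and 2.03 CPM to 13.6, 15.3 and 15.8 CPM (log2 2.41 ± 0.20, edgeR adjusted p = 7.1e-05). Among 28 YAP and TEAD pathway genes 6 rose and 6 fell (median -0.17, and -0.30 and -0.03 without BRM knockout replicates 1 and 2). Besides targets, this list holds the factors YAP1, WWTR1 and TEAD1 to TEAD4, of which TEAD3 rose and TEAD4 fell. Cytokines, chemokines and NF-kB genes rose in 8 of 42 and fell in 10 (median 0.10, and 0.28 without parental replicate 1), with 3 rises without parental replicate 2 or 3, 4 without BRM knockout replicate 1 and 5 without BRM knockout replicate 3. Long noncoding RNA genes rose in 355 and fell in 265 of 2622 tested.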
